A study of Homo sapiens with 6 samples.

Results

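Solute carriers are membrane proteins that move sugars, acids, amino acids, metals, ions, vitamins and lipids across the plasma membrane and across the membranes of organelles. The genes described here are 174 symbols of the SLC gene series, out of 319 SLC symbols listed in at least 1 of 6 RNA sequencing libraries. Members were taken by symbol: 44 mitochondrial SLC25A symbols and 10 amino acid transporter genes were left out, and of the 265 that remained 174 averaged 0.5 FPKM or more across all 6. FPKM counts fragments relative to the length of a transcript and the mapped total of its library. The members were thus chosen by their mean level over all 6 libraries, so their levels are a description. The rule did not use the difference between the groups, but 9 members passed it through the control group only. Members and substrate groups were also chosen with earlier results of these data known. Of the members 166 are carriers, placed in 10 substrate groups, and 8 are proteins, RNAs or pseudogenes that only share the name.

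The libraries came from A549 cells, a line established from a human lung carcinoma. By their labels 3 are controls (genotype: wild type) and 3 had FOXD3 knocked down. FOXD3, a forkhead transcription factor, was targeted by transfecting a pool of small interfering RNAs with lipid. Silencing was looked at 72 h later, per the labels' protocols, and what the control wells received is not stated. All libraries came from 1 cell line, and nothing in the labels says that replicates were separate cultures, so the p-values reflect the spread among these samples alone, and that spread may be technical. The question put to each carrier was whether its transcript level differed between knockdown and control libraries.

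Carriers of the SLC type work without burning ATP themselves. Facilitators let a solute run down its gradient, while cotransporters and exchangers couple it to sodium, protons or chloride, whose gradients are kept by ion pumps. In an airway or alveolar cell they feed glycolysis and export lactate, supply the Golgi with sugar nucleotides, set zinc, copper and iron in each compartment, and hold cell volume and pH. In a mixture, fewer cells of a type and less RNA per cell cannot be told apart. Transcript level says nothing of how much carrier protein sits in a membrane.

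From the FPKM steps of intronless genes, depth was estimated at 6610000 to 7420000 fragments per library, so that 1 fragment on a transcript of 3000 bases was worth 0.0450 to 0.0504 FPKM. The estimate read 9 to 16 genes per library in a window of 5000000 to 10000000 fragments that was set after the values had been seen, so it is rough. FOXD3 itself was listed at 0.152, 0.291 and 0.134 FPKM in the control and 0, 0.0749 and 0 FPKM in the knockdown libraries; an exact permutation test (two-sided) reached p = 0.1, and 3 against 3 libraries cannot go lower. At that depth FOXD3 rested on a few fragments and the size of the difference was not measurable. The 6 epithelial markers were all above 5 FPKM, with summed levels of 5260 to 6257 FPKM in control and 7395 to 7460 FPKM in knockdown libraries. Keratins carried the sum; KRT8, KRT18 and EPCAM were called higher, CDH1 and CLDN4 lower, and KRT19 was not called as deposited. The CDH1 call was lost after median scaling, and KRT19 was called higher with array weights and without control replicate 1 (0.000505, limma adjusted p). Of the alveolar markers SFTPC was listed at 0 in every control library and SFTPA1 at 0.0726 ± 0.0636 and 0.0389 ± 0.0337 FPKM in control and knockdown libraries. SFTPD stood at 0.857 ± 0.447 and 0.1099 ± 0.0425 FPKM, NKX2-1 at 1.27 ± 0.115 and 1.597 ± 0.0485 FPKM and LPCAT1 at 43.7 ± 3.95 and 66.4 ± 1.37 FPKM. The leukocyte markers summed to 2.86 to 4.23 FPKM in control and 1.56 to 2.07 FPKM in knockdown libraries, mostly CD14, while PTPRC stood at 0.227 ± 0.0713 and 0.194 ± 0.04295 FPKM. The endothelial markers, mostly CDH5, summed to 2.55 to 3.397 FPKM and 1.87 to 2.18 FPKM. The fibroblast markers, mostly COL1A1, summed to 3.61 to 4.56 FPKM and 2.96 to 3.58 FPKM. Their part in the carrier results was not tested.

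The carrier transcripts of these cells spanned a wide range. Mean levels over 6 libraries ran from 0.510 to 121 FPKM with a median of 7.77 FPKM, and 77 members stood at 10 FPKM or more and 19 under 1 FPKM. Every member was listed in all 6 libraries. The most abundant was the choline transporter-like gene SLC44A2 at 121 FPKM, followed by the zinc importer SLC39A1 at 104 FPKM, the purine carrier SLC43A3 at 94.7 FPKM, the Golgi sugar carrier SLC50A1 at 77.00 FPKM and the zinc carrier of the endoplasmic reticulum SLC39A7 at 75.8 FPKM. The lactate exporter SLC16A3, the sulfate donor carrier SLC35B2, the nucleotide carrier SLC35B1, the glucose carrier SLC2A1 and the anion exchanger SLC4A2 completed the top 10. Those 10 genes held 29.8% of the members' summed FPKM. By substrate the metal carriers took the greatest share of that sum, 22.5%, and the SLC35 family of nucleotide sugar carriers 15.1%.

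**Figure D1:**
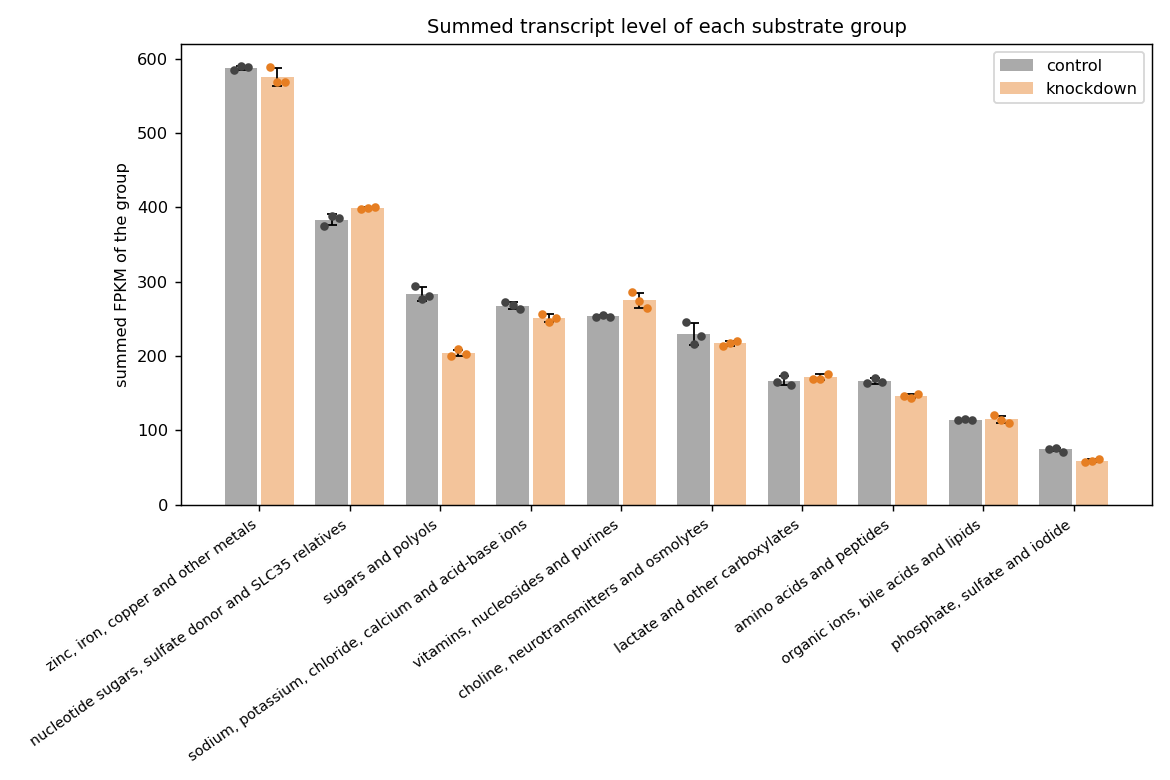
Summed FPKM of each substrate group (vertical axis, from 0) in control and knockdown libraries; bars are means, error bars SD and points the 3 libraries of a group. The sugar group went from 284 to 204 FPKM, while the metal group stood at 587 and 575 FPKM.

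Summed over all 174 members the level was 2655, 2639 and 2611 FPKM in the control and 2555, 2516 and 2525 FPKM in the knockdown libraries, a little lower in every knockdown library. The substrate groups differed in size and direction. The sugar and polyol carriers summed to 294, 277 and 280.4 FPKM in the control and 200.5, 209 and 202 FPKM in the knockdown libraries, and the 2 sets of libraries did not overlap. The phosphate and sulfate group stood at 75.7, 76.03 and 71.6 FPKM in the control and 57.3, 59.2 and 62.2 FPKM in the knockdown libraries, and the amino acid and peptide group at 164, 171 and 165 FPKM in the control and 147, 144 and 149 FPKM in the knockdown libraries. These groups were also lower in every knockdown library. The vitamin and nucleoside group was higher in each of them, at 253, 255 and 253 FPKM in the control and 286, 274 and 265 FPKM in the knockdown libraries. Such sums are dominated by a few abundant genes, and no test was run on them.

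Of the 174 members 99 passed limma's test on log2(FPKM + 1), with Benjamini-Hochberg adjustment over all 13340 genes tested and a threshold of 0.05. Genes are named by a rule of level and size of change within each substrate group, and the others after their values were seen. The calls were 33 higher and 66 lower in the knockdown libraries. The share called was 56.9%, against 63.5% of all tested genes, so the members were not called more often than other genes. Members called lower made up 37.9% against 37.9% of all genes, and members called higher 18.97% against 25.6%. The median log2 change of the members was -0.08, that of all tested genes -0.09. The log2(FPKM + 1) scale, on which every log2 change here is given as knockdown minus control, understates the change of low genes. Beside the adjusted p-values, the control and knockdown libraries did not overlap in 108 members (62.1%), against 69.1% of all tested genes. A total of 9 members reached 0.5 FPKM in the control group only and none in the knockdown group only. They were SLC15A1, SLC15A3, SLC28A1, SLC2A3, SLC30A4, SLC38A3, SLC45A1, SLC46A2 and SLC7A8. Without them 33 were higher and 58 lower of 165 (20% and 35.2%). Of all genes filtered the same way 26.4% were higher and 36.6% lower.

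The balance between rises and falls depended on how libraries were scaled. Without further scaling 33.3% of the members' calls were higher, against 40.4% of the calls of all tested genes. After median scaling the members' share was 45.2% (47 higher and 57 lower), against 49.0% for all tested genes. After quantile normalization it was 48.1% (52 and 56), against 52.4%. Quantile normalization moved the median log2 change of all genes from -0.09 to 0.03, so small changes are read relative to that shift. No called member changed direction under any of the 16 alternative settings. On the log2(FPKM + 1) scale 14 called members (8.05%) were lower by 1 or more, as were 5.73% of all genes, and 0 were higher by 1 or more, as were 1.71% of all genes. The scale sets part of this. By the ratio of mean FPKM 29 called members were at least 2-fold lower, as were 11.4% of all genes. At least 2-fold higher were 2, SLC27A4 and SLC5A11, as were 2.97% of all genes. This measure was added after the values had been seen. The 29 include SLC15A1, SLC15A3, SLC28A1, SLC2A3, SLC30A4, SLC38A3 and SLC7A8, which had passed the level filter through the control group only. No count without such members was made by this measure. The SLC5A11 call was lost without control replicate 1 (0.0729), knockdown replicate 1 (0.0837), knockdown replicate 3 (0.0905), limma adjusted p in brackets. In order of size the 14 were SLC1A3, SLC2A6, SLC16A4, SLC2A10, SLC46A3, SLC28A3, SLC15A1, SLC22A15, SLC22A18, SLC27A1, SLC37A2, SLC29A4, SLC44A4 and SLC4A3, of which SLC15A1 had passed the level filter through the control group only.

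**Figure D2:**
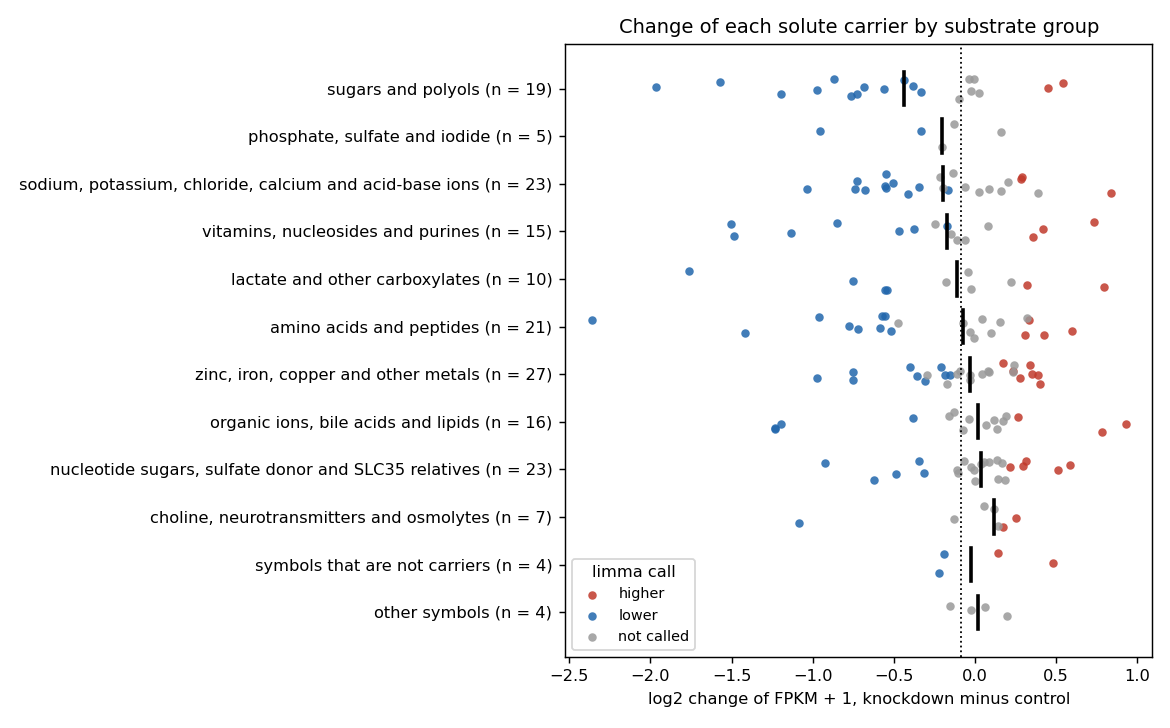
Log2 change of FPKM + 1, knockdown minus control (horizontal axis), of each member by substrate group; colour gives limma's call, the black bar the group's median and the dotted line the median of all tested genes (-0.09). The sugar group has the lowest median, -0.44, and on this scale the changes reach below -1 but not above 1.

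The authors' deposited table of their own comparison, with 1 FPKM value per group, calls 1059 of its 12275 rows (8.63%); every called row changed at least 2-fold and the largest false discovery rate among them was 0.00984. It lists 154 of the members and calls 18, 2 higher and 16 lower. All its called rows split into 395 higher and 664 lower. The 18 went in the direction limma gave, but both comparisons use the same samples, so this is not independent support. The 2 called higher in the authors' deposited table are SLC12A2 and SLC27A4. Of the 16 called lower there, SLC1A3 stood at 7.98 and 0.786 FPKM for control and knockdown, and SLC2A6 at 11.3 and 2.41 FPKM, in the authors' deposited table. The group values of the authors' deposited table lay within 1.5 times the library means for 151 of 154 members. The 3 others were SLC39A4, at 74.01 and 113 FPKM in the authors' deposited table, SLC35A3, at 9.74 and 9.59 FPKM, and SLC43A2, at 1.95 and 2.64 FPKM, so the levels of these 3 differ between the deposited sources.

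**Figure D3:**
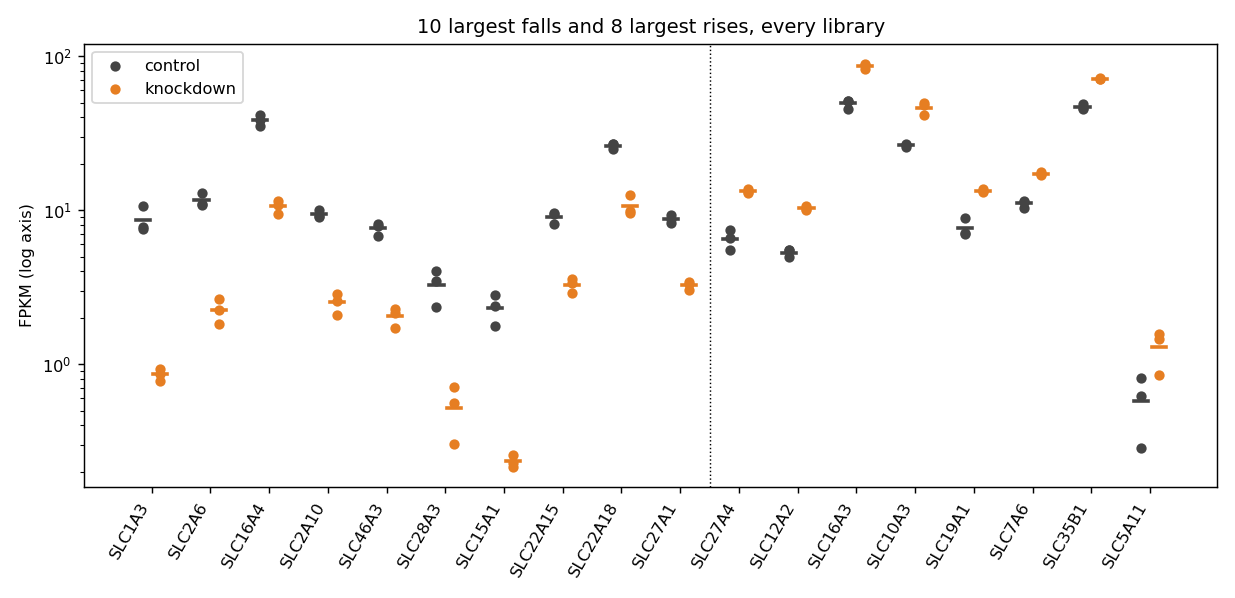
FPKM of each library (log axis) for the 10 members with the largest falls (left of the dotted line) and the 8 with the largest rises (right); points are libraries and bars group means. In all 18 genes the control and knockdown points are apart, and SLC1A3 shows the widest gap, 7.54 FPKM in the lowest control against 0.929 FPKM in the highest knockdown library.

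The 250 bases before a RefSeq transcription start are shown for 2 pairs of genes. SLC1A3 and SLC2A6 fell furthest, and SLC27A4 and SLC12A2 rose furthest, so that promoters at both ends of the range can be read side by side. They are RefSeq sequences on GRCh38.p14, a later build than the hg19 of the authors' files, at chr5:36596338-36596587 (plus strand), chr9:133479100-133479349 (minus strand), chr9:128340277-128340526 (plus strand) and chr5:128083516-128083765 (plus strand). Capitals mark matches, on either strand, to the GC box GGGCGG and to a metal response element, TGCACNC or TGCGCNC.
SLC1A3: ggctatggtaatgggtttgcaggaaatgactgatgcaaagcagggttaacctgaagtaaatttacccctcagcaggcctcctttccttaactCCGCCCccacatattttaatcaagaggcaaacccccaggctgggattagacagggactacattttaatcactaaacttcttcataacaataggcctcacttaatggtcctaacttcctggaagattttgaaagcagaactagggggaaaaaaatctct
SLC2A6: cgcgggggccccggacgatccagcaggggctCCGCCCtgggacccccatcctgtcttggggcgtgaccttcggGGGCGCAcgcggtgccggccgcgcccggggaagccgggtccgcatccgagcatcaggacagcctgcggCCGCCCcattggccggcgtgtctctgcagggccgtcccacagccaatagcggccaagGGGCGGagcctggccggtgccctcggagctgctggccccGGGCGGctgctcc
SLC27A4: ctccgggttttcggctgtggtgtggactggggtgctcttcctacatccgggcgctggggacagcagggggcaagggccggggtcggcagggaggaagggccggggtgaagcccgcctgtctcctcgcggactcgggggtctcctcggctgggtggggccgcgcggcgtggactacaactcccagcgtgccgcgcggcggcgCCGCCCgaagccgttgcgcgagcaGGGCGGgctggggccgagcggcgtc
SLC12A2: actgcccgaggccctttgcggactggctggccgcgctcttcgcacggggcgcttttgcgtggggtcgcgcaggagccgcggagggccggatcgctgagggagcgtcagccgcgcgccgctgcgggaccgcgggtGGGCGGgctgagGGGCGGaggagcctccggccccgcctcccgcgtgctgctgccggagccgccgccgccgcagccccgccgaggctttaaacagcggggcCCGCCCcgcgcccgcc
The SLC1A3 window holds 43.2% G and C and 1 GC box, whereas the other windows hold 75.2% to 79.6% and 2 to 4 GC boxes each. That window ends at 36596587 on GRCh38.p14, while the SLC1A3 locus measured here starts at 36606457 on hg19. Positions were not converted between builds, so whether a window adjoins the start of the measured transcript was not checked. The contrast may therefore concern a start that was not measured. SLC2A6 also has 1 match to the metal response element. Of the members 135 were matched by symbol to a promoter, and 92 of them (68.1%) held a GC box, against 42.3% of 27305 promoters of this length. Unlike the members, the 27305 promoters were not filtered by level, and the share among expressed genes was not counted. The difference therefore cannot be read as a trait of solute carriers. On the log2(FPKM + 1) scale, the box stood in 8 of 11 matched genes called lower by 1 or more and in 6 of 8 called higher by 0.5 or more. A metal response element stood in 8 of 24 matched metal carriers (33.3%), in 44 of the 135 matched members (32.6%) and in 24.7% of all promoters. The share in metal carriers was thus near that of the members as a whole. The kB element, the AP-1 element TGANTCA and the E-box CACGTG, searched on both strands, have no match in the printed windows. A match is a description of letters, not a binding site, and no match says nothing of a factor.

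Carriers of sugars and polyols came first in size of change. Of 19 members 12 were lower and 2 higher, with a median log2 change of -0.44 against -0.09 for all tested genes. SLC2A3 and SLC45A1 had passed the level filter through the control group only. Without them 10 of 17 were lower (58.8%, against 36.6% of all genes filtered the same way). With them kept, median scaling called 11 of the 19 members lower, and quantile normalization also called 11 of 19 lower. Of all 13340 tested genes these settings called 4304 and 3909 lower. The 17 were not recounted under either scaling. The main glucose carrier of the plasma membrane was among the members not called. SLC2A1 (GLUT1; Entrez 6513; chromosome 1, 43391046 to 43424847, hg19), which serves basal glucose uptake, was measured at 59.5, 58.7 and 60.01 FPKM (control replicates 1 to 3) and 57.2, 57.3 and 59.5 FPKM (knockdown replicates 1 to 3). These values overlapped, with a log2 change of -0.03 (SE 0.0411; limma adjusted p = 0.49); after quantile normalization SLC2A1 was called, at an adjusted p of 0.0301. SLC2A6 (GLUT6; Entrez 11182; chromosome 9, 136336216 to 136344276, hg19), a hexose facilitator of lysosomal membranes, was measured at 13.03, 10.9 and 10.98 FPKM (control replicates 1 to 3) and 2.66, 1.83 and 2.25 FPKM (knockdown replicates 1 to 3). Every knockdown library was below every control library, and the log2 change was -1.96 (SE 0.11; limma adjusted p = 4.49e-06), 5.17-fold lower by mean FPKM. SLC2A10 (GLUT10; Entrez 81031; chromosome 20, 45338279 to 45364985, hg19), a facilitator of intracellular membranes whose loss causes arterial tortuosity, was measured at 9.03, 9.22 and 9.98 FPKM (control replicates 1 to 3) and 2.88, 2.58 and 2.101 FPKM (knockdown replicates 1 to 3). The groups were again apart, with a log2 change of -1.57 (SE 0.0991; limma adjusted p = 6.4e-06).

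Other hexose facilitators followed SLC2A6 downward. SLC2A12 (GLUT12), an insulin-responsive glucose carrier, went from 4.96 ± 0.702 to 2.03 ± 0.257 FPKM (mean ± SD, n = 3, as for all such pairs), a log2 change of -0.97 (SE 0.11; limma adjusted p = 0.000145). SLC2A11 (GLUT11), a glucose and fructose carrier, went from 8.203 ± 0.7704 to 4.41 ± 0.3005 FPKM with a log2 change of -0.76 (SE 0.0874; limma adjusted p = 0.000125). SLC2A3 (GLUT3), the high-affinity carrier of neurons, was low throughout, at 1.802, 0.564 and 1.09 FPKM in the control and 0.0797, 0.0845 and 0.277 FPKM in the knockdown libraries, and its reads may be shared with the close paralog SLC2A14. The exception in the family was SLC2A8 (GLUT8), an intracellular hexose carrier, which rose from 5.55 ± 0.263 to 7.95 ± 0.6395 FPKM, with a log2 change of 0.45 (SE 0.0793; limma adjusted p = 0.00137). Leaving out SLC2A3, which had passed the level filter through the control group only, 4 of 6 SLC2A members were lower and 1 higher. Of all genes filtered the same way 36.6% were lower and 26.4% higher.

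SLC50A1 and 3 of 4 SLC37A members were also lower. SLC50A1 (SWEET1; Entrez 55974; chromosome 1, 155108288 to 155111334, hg19), a Golgi sugar carrier and the most abundant of the group, was measured at 104, 92.3 and 92.2 FPKM (control replicates 1 to 3) and 55.2, 61.3 and 56.4 FPKM (knockdown replicates 1 to 3). The groups did not overlap, and the log2 change was -0.73 (SE 0.0642; limma adjusted p = 3.13e-05). SLC37A2, a sugar phosphate exchanger of the endoplasmic reticulum, went from 6.68 ± 0.586 to 2.35 ± 0.0375 FPKM, with a log2 change of -1.19 (SE 0.0847; limma adjusted p = 1.08e-05). SLC37A4, the glucose-6-phosphate translocase that feeds the last step of glucose release, went from 15.4 ± 1.09 to 11.6 ± 0.611 FPKM, and SLC37A1, another phosphate-linked exchanger, from 13.8 ± 0.555 to 9.900 ± 0.574 FPKM. The fourth family member, SLC37A3, stood at 20.6 ± 1.33 and 20.5 ± 0.507 FPKM and was not called (limma adjusted p = 0.96). SLC45A3 (prostein), a sugar carrier best known from prostate, went from 12.4 ± 1.22 to 7.35 ± 0.659 FPKM with a log2 change of -0.68 (SE 0.0919; limma adjusted p = 0.000311). SLC5A3, the sodium-coupled myo-inositol carrier, stood at 3.32 ± 0.251 and 3.39 ± 0.1901 FPKM and was not called as deposited, with a log2 change of 0.02; quantile normalization called it (0.0157). SLC5A11, another inositol carrier, rose from a low level, 0.286, 0.623 and 0.814 FPKM in the control and 1.46, 0.846 and 1.57 FPKM in the knockdown libraries; its call was lost without control replicate 1 (0.0729), knockdown replicate 1 (0.0837), knockdown replicate 3 (0.0905), limma adjusted p in brackets.

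Carriers of lactate and related acids, the SLC16A monocarboxylate family, split. Of 10 members 2 were higher and 4 lower, where 37.9% of all tested genes were lower. Quantile normalization gave 3 higher and 3 lower, and turned the median log2 change from -0.11 to 0.19. Over all 13340 tested genes it gave 4304 higher and 3909 lower and moved the median from -0.09 to 0.03. The members called higher were SLC16A3 and SLC16A1. SLC16A3 (MCT4; Entrez 9123; chromosome 17, 80186282 to 80197375, hg19), which exports lactate from glycolytic cells, was measured at 51.4, 51.02 and 45.6 FPKM (control replicates 1 to 3) and 83.00, 87.6 and 88.8 FPKM (knockdown replicates 1 to 3). All knockdown values lay above all control values, and the log2 change was 0.80 (SE 0.0577; limma adjusted p = 1.19e-05), 1.75-fold higher by mean FPKM. SLC16A1 (MCT1), which moves lactate and pyruvate either way, stood at 36.7, 37.4 and 36.4 FPKM (control replicates 1 to 3) and 46.9, 45.4 and 46.4 FPKM (knockdown replicates 1 to 3). Its change was smaller but its libraries agreed closely, with a log2 change of 0.32 (SE 0.0426; limma adjusted p = 0.00029). SLC16A7 (MCT2), a high-affinity pyruvate carrier, stood at 1.61 ± 0.3697 and 2.03 ± 0.228 FPKM and was not called as deposited (adjusted p = 0.163), while quantile normalization gave an adjusted p of 0.0108.

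Other members of the family fell. SLC16A4 (MCT5; Entrez 9122; chromosome 1, 110905473 to 110933704, hg19) was measured at 35.1, 41.6 and 38.4 FPKM (control replicates 1 to 3) and 9.51, 10.8 and 11.5 FPKM (knockdown replicates 1 to 3). The gap between the groups was wide, with a log2 change of -1.76 (SE 0.0855; limma adjusted p = 2.01e-06) and a mean level 3.62-fold lower. SLC16A13 (MCT13) went from 17.98 ± 0.9697 to 10.3 ± 1.09 FPKM, with a log2 change of -0.75 (SE 0.0818; limma adjusted p = 9.49e-05), and SLC16A5 (MCT6) from 18.2 ± 1.18 to 12.2 ± 1.17 FPKM, with a log2 change of -0.54 (SE 0.082; limma adjusted p = 0.000587). BSG, the chaperone that brings MCT1 and MCT4 to the cell surface, was itself abundant and rose from 391 ± 32.4 to 474 ± 5.202 FPKM, with a log2 change of 0.28 (SE 0.0577; limma adjusted p = 0.00294).

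**Figure D4:**
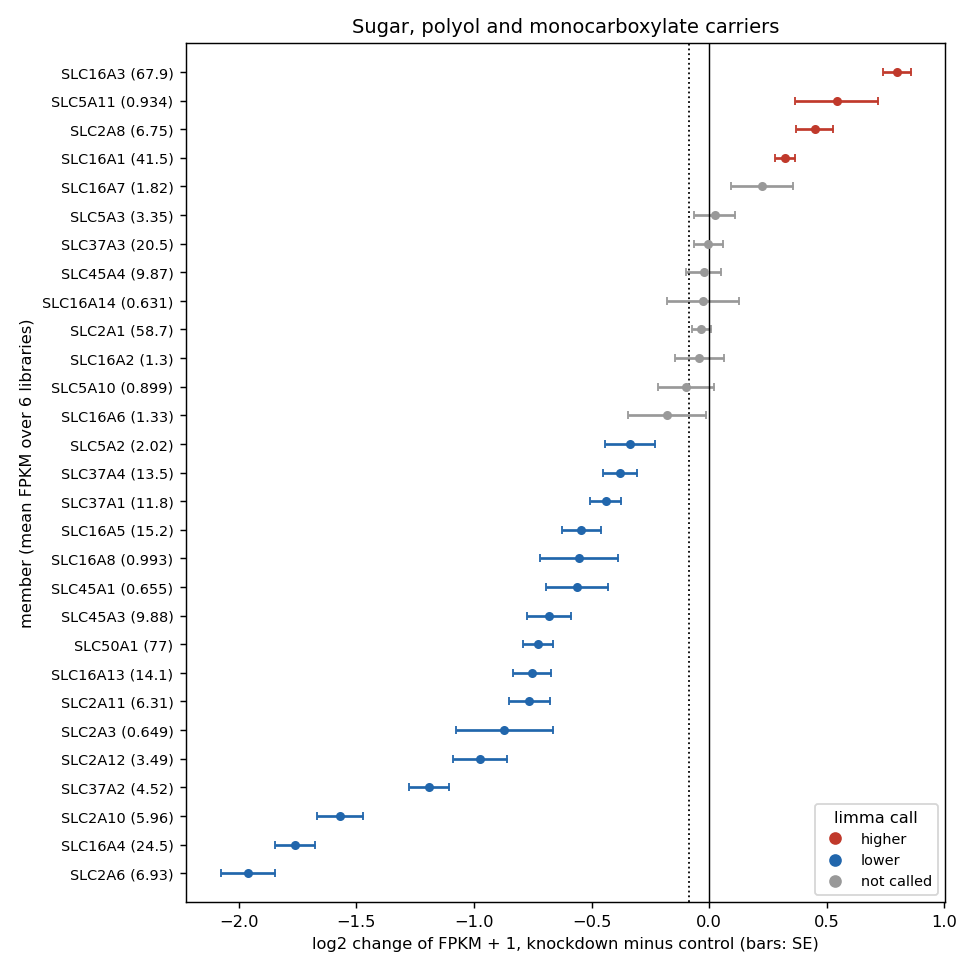
Log2 change of FPKM + 1, knockdown minus control, with its SE (bars) for the 29 sugar, polyol and monocarboxylate carriers, ordered by change; numbers after the names are mean FPKM over 6 libraries, colour gives limma's call, and the dotted line is the median of all tested genes. SLC16A3 stands at the top (0.80) and SLC2A6 at the bottom (-1.96), with SLC2A1 near 0.

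Amino acid and peptide carriers, outside the 10 genes left out, were lower in 9 and higher in 4 of 21. Of those lower, SLC15A1, SLC15A3, SLC38A3 and SLC7A8 had passed the level filter through the control group only, and without these 5 were lower and 4 higher of 17, or 29.4% lower against 36.6% of all genes filtered the same way. Over all 21 members the split under quantile normalization was 6 lower and 7 higher, where 3909 and 4304 of all 13340 tested genes were. SLC1A3 (EAAT1; Entrez 6507; chromosome 5, 36606457 to 36688436, hg19), a sodium-coupled glutamate and aspartate carrier, showed the largest change of any member and stood at 7.75, 7.54 and 10.6 FPKM (control replicates 1 to 3) and 0.864, 0.929 and 0.781 FPKM (knockdown replicates 1 to 3). It was 10.1-fold lower by mean FPKM, with a log2 change of -2.36 (SE 0.13; limma adjusted p = 3.35e-06). SLC1A1 (EAAT3), a carrier of the same substrates, stood at 3.200 ± 0.4699 and 3.31 ± 0.288 FPKM and was not called (log2 change 0.04; limma adjusted p = 0.747), though quantile normalization called it at 0.0345. SLC15A1 (PEPT1), the proton-coupled importer of short peptides, stood at 2.37, 1.77 and 2.82 FPKM (control replicates 1 to 3) and 0.215, 0.229 and 0.258 FPKM (knockdown replicates 1 to 3). Every knockdown library was below every control library, and the log2 change was -1.42 (SE 0.13; limma adjusted p = 4.65e-05).

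Further carriers of this group fell by less. SLC17A5 (sialin; Entrez 26503; chromosome 6, 74303102 to 74363737, hg19), which lets sialic acid out of lysosomes, was measured at 21.1, 21.2 and 20.6 FPKM (control replicates 1 to 3) and 9.504, 10.2 and 11.3 FPKM (knockdown replicates 1 to 3). The control libraries were close to each other and all above the knockdown libraries, with a log2 change of -0.96 (SE 0.0702; limma adjusted p = 1.26e-05). SLC6A9 (GlyT1), a glycine importer, went from 26.1 ± 2.52 to 17.4 ± 0.968 FPKM, with a log2 change of -0.55 (SE 0.0785; limma adjusted p = 0.000411). SLC6A14 (ATB0,+), a broad amino acid importer, went from 2.68 ± 0.644 to 1.43 ± 0.0839 FPKM with a log2 change of -0.59 (SE 0.14; limma adjusted p = 0.00616), and quantile normalization ended that call (adjusted p = 0.0994). SLC7A8 (LAT2), at 1.01 ± 0.133 and 0.216 ± 0.08705 FPKM in control and knockdown libraries, and SLC38A3 (SNAT3), at 1.21 ± 0.269 and 0.288 ± 0.0625 FPKM, were called lower. Both had passed the level filter through the control group only. On the other side SLC7A6 (y+LAT2), which exchanges arginine for glutamine, rose from 11.1 ± 0.579 to 17.2 ± 0.442 FPKM, with a log2 change of 0.60 (SE 0.0611; limma adjusted p = 6.8e-05). SLC36A1 (PAT1), a proton-coupled exporter of small amino acids from lysosomes, rose from 3.63 ± 0.4401 to 5.19 ± 0.117 FPKM, and SLC43A2 (LAT4) from 5.13 ± 0.0398 to 6.72 ± 0.544 FPKM. SLC38A9, the arginine sensor of the lysosomal membrane, stood at 12.01 ± 1.79 and 11.7 ± 1.101 FPKM and was not called (adjusted p = 0.821). SLC38A10, the most abundant of the group, stood at 28.00 ± 2.07 and 31.3 ± 0.984 FPKM and was not called as deposited (adjusted p = 0.0577), but was called without control replicate 2 and after median scaling, with the lowest adjusted p over the settings at 0.00822.

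Nucleotide sugar carriers of the SLC35 family, with SLC33A1, held 5 higher, 5 lower and 13 not called of 23. After median scaling and after quantile normalization 9 were higher and 5 lower. Of all 13340 tested genes 4140 and 4304 were higher in these settings, and 4304 and 3909 lower. As deposited 21.7% of the group were lower, against 37.9% of all tested genes. These proteins bring sugar nucleotides, sulfate donor and ATP into the Golgi and the endoplasmic reticulum. SLC35B1 (Entrez 10237; chromosome 17, 47778690 to 47785282, hg19), which exchanges ATP for ADP across the membrane of the endoplasmic reticulum, was measured at 45.6, 49.1 and 46.4 FPKM (control replicates 1 to 3) and 71.1, 70.6 and 71.8 FPKM (knockdown replicates 1 to 3). Its replicates were tight and apart, with a log2 change of 0.59 (SE 0.0449; limma adjusted p = 1.55e-05). SLC35B2, the Golgi carrier of the sulfate donor PAPS, stood at 59.4 ± 1.69 and 61.8 ± 1.86 FPKM and was not called (adjusted p = 0.316), except after median scaling (0.0339). SLC35A1, SLC35A2, SLC35A3 and SLC35C1 carry CMP-sialic acid, UDP-galactose, UDP-N-acetylglucosamine and GDP-fucose; none of the 4 was called, with log2 changes of 0.14, 0.09, -0.11 and -0.07. SLC35A1 was called after quantile normalization (0.0412) and SLC35A3 without control replicate 1 (0.0256).

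The falls in this group were in SLC35D2, SLC33A1, SLC35A5 and a pair of near-identical genes. SLC35D2, a Golgi carrier of UDP-N-acetylglucosamine among other nucleotides, stood at 22.4, 19.3 and 23.3 FPKM (control replicates 1 to 3) and 10.4, 11.3 and 11.04 FPKM (knockdown replicates 1 to 3). All knockdown libraries were below the lowest control, and the log2 change was -0.93 (SE 0.0781; limma adjusted p = 2.53e-05). SLC33A1, which brings acetyl-CoA into the endoplasmic reticulum, went from 20.4 ± 1.82 to 14.3 ± 1.17 FPKM, with a log2 change of -0.49 (SE 0.0842; limma adjusted p = 0.00118). SLC35E2 and SLC35E2B lie side by side on chromosome 1 and are near-identical, so their reads may be divided uncertainly; they went from 7.197 ± 0.646 to 4.31 ± 0.03199 and from 13.8 ± 0.685 to 10.6 ± 0.352 FPKM. SLC35G1 rose from 3.18 ± 0.471 to 4.95 ± 0.629 FPKM, with a log2 change of 0.51 (SE 0.12; limma adjusted p = 0.00539). SLC35A4 went from 32.4 ± 2.56 to 37.8 ± 0.907 FPKM (adjusted p = 0.0169), and its call was lost without knockdown replicate 2 (0.055), knockdown replicate 3 (0.0575), limma adjusted p in brackets.

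Metal carriers were balanced, with 7 higher (25.9%), 9 lower (33.3%) and 11 not called of 27, against 25.6% and 37.9% of all tested genes. After median scaling 10 were higher and 6 lower, where 4140 and 4304 of all 13340 tested genes were. No called metal carrier changed by 1 or more on the log2(FPKM + 1) scale; by the ratio of mean FPKM SLC11A2 was 2.02-fold lower, and SLC30A4, which had passed the level filter through the control group only, 2.298-fold lower. The SLC30A4 call was lost after quantile normalization and without control replicate 2 (0.0544), control replicate 3 (0.113), knockdown replicate 1 (0.073), knockdown replicate 3 (0.115), limma adjusted p in brackets. Falls of iron and copper importers came in SLC11A2, SLC31A1 and SLC31A2. SLC11A2 (DMT1; Entrez 4891; chromosome 12, 51373566 to 51422058, hg19), which brings ferrous iron across the plasma membrane and out of endosomes, was measured at 35.1, 40.6 and 44.1 FPKM (control replicates 1 to 3) and 21.3, 18.1 and 20.1 FPKM (knockdown replicates 1 to 3). All knockdown values were under all control values, with a log2 change of -0.97 (SE 0.0915; limma adjusted p = 4.41e-05). SLC31A1 (CTR1), the high-affinity copper importer, went from 13.4 ± 0.689 to 10.7 ± 0.566 FPKM, with a log2 change of -0.31 (SE 0.0674; limma adjusted p = 0.00412). SLC31A2 (CTR2), its intracellular relative, stood at 22.8, 17.8 and 18.2 FPKM (control replicates 1 to 3) and 10.7, 12.6 and 10.3 FPKM (knockdown replicates 1 to 3), and the log2 change was -0.75 (SE 0.11; limma adjusted p = 0.000454). The iron exporter ferroportin, SLC40A1, stood at 8.98, 11.1 and 11.5 FPKM (control replicates 1 to 3) and 13.5, 11.4 and 12.9 FPKM (knockdown replicates 1 to 3). These groups overlapped and the adjusted p was 0.0652 as deposited; the call was made after median scaling (0.0167), after quantile normalization and without knockdown replicate 2. SLC48A1 (HRG1), a heme carrier of endosomes, stood at 25.3 ± 1.79 and 24.8 ± 0.732 FPKM and was not called (adjusted p = 0.706).

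Carriers of the SLC39A family bring zinc into the cytosol and those of the SLC30A family take it out. Among 11 SLC39A members 4 were higher (36.4%) and 2 lower (18.2%), and among 8 SLC30A members 3 were higher (37.5%) and 2 lower (25%). Of all tested genes 25.6% were higher and 37.9% lower. SLC39A4 (ZIP4), the importer lost in acrodermatitis enteropathica, stood at 18.4, 19.9 and 17.2 FPKM (control replicates 1 to 3) and 28.03, 23.3 and 23.2 FPKM (knockdown replicates 1 to 3). All knockdown values were above all control values, with a log2 change of 0.40 (SE 0.0868; limma adjusted p = 0.00386); its level is higher in the authors' deposited table, 74.01 and 113 FPKM for control and knockdown. SLC39A9 went from 28.6 ± 1.24 to 36.7 ± 0.345 FPKM, with a log2 change of 0.35 (SE 0.0497; limma adjusted p = 0.000426). SLC39A1 (ZIP1), the most abundant zinc carrier, went from 97.8 ± 3.37 to 110.2 ± 3.02 FPKM (adjusted p = 0.00921), and quantile normalization ended that call (0.118). SLC39A13 (ZIP13), which works on zinc in the secretory pathway, fell from 14.6 ± 0.384 to 8.27 ± 0.359 FPKM with a log2 change of -0.75 (SE 0.0614; limma adjusted p = 2.18e-05). SLC39A7 (ZIP7), which releases zinc from the endoplasmic reticulum, stood at 73.6 ± 1.51 and 78.00 ± 1.41 FPKM and was not called (adjusted p = 0.106; 0.0114 after median scaling); it was summed over several haplotype loci. SLC39A8 and SLC39A14, importers of zinc, iron and manganese, were not called: SLC39A8 stood at 13.9 ± 1.37 and 13.00 ± 1.31 FPKM and SLC39A14 at 19.1 ± 1.61 and 20.3 ± 0.331 FPKM.

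Among the exporters SLC30A1 (ZnT1), the zinc exporter of the plasma membrane and a target of the metal sensor MTF1, rose from 6.79 ± 0.539 to 8.43 ± 0.204 FPKM, with a log2 change of 0.28 (SE 0.0749; limma adjusted p = 0.0119). MTF1 itself rose from 5.19 ± 0.317 to 6.33 ± 0.255 FPKM (adjusted p = 0.0209), a call lost without control replicate 2 (0.0627), knockdown replicate 1 (0.0507), knockdown replicate 3 (0.0758), limma adjusted p in brackets. SLC30A5 and SLC30A6 form a complex that loads zinc into the early secretory pathway. SLC30A6 rose from 12.9 ± 1.19 to 16.6 ± 0.981 FPKM with a log2 change of 0.34 (SE 0.0789; limma adjusted p = 0.00554), while SLC30A5 stood at 19.3 ± 2.25 and 19.9 ± 1.01 FPKM and was not called. SLC30A9, the most abundant exporter, went from 37.8 ± 1.15 to 33.98 ± 1.93 FPKM (adjusted p = 0.0428); its call was lost after median scaling and without control replicate 2 (0.12), control replicate 3 (0.0663), knockdown replicate 1 (0.0778), knockdown replicate 2 (0.152), limma adjusted p in brackets. The magnesium carrier SLC41A3 fell from 34.1 ± 0.967 to 26.4 ± 1.09 FPKM, with a log2 change of -0.36 (SE 0.0519; limma adjusted p = 0.000472).

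**Figure D5:**
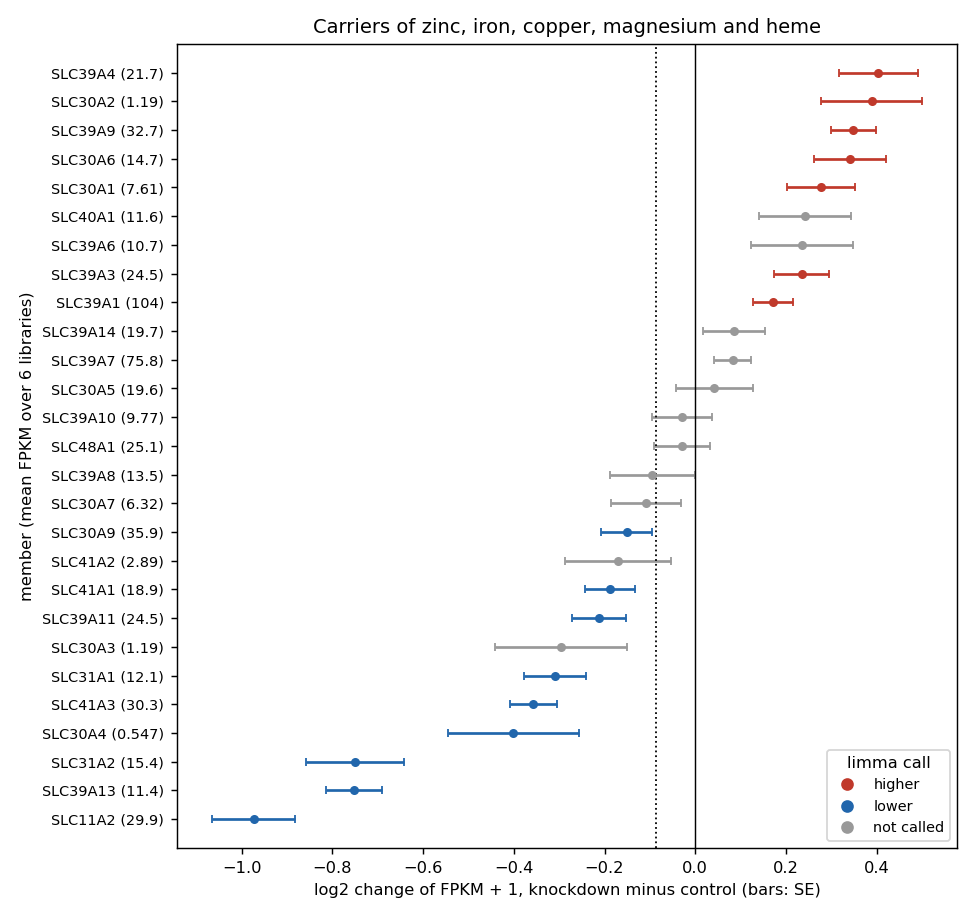
Log2 change of FPKM + 1, knockdown minus control, with its SE (bars) for the 27 carriers of zinc, iron, copper, magnesium and heme, ordered by change; numbers after the names are mean FPKM, colour gives limma's call and the dotted line is the median of all tested genes. SLC11A2 (-0.97), SLC39A13 (-0.75) and SLC31A2 (-0.75) stand apart on the left and the other members lie between -0.40 and 0.40.

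Carriers of sodium, potassium, chloride, calcium, bicarbonate and protons had 11 lower (47.8%) and 3 higher (13.04%) of 23 members, against 37.9% and 25.6% of all tested genes. After median scaling the counts were 10 lower and 6 higher, against 4304 and 4140 of all 13340 tested genes. The cation-chloride cotransporters moved in both directions. SLC12A2 (NKCC1; Entrez 6558; chromosome 5, 127419483 to 127525380, hg19), which loads chloride into epithelial cells and swells them, was measured at 4.93, 5.51 and 5.48 FPKM (control replicates 1 to 3) and 10.6, 10.2 and 10.1 FPKM (knockdown replicates 1 to 3). All knockdown values were above all control values, and the log2 change was 0.84 (SE 0.0702; limma adjusted p = 2.42e-05), 1.94-fold higher by mean FPKM. The potassium-chloride cotransporters let chloride out. Of these SLC12A4 (KCC1) went from 5.49 ± 0.206 to 3.43 ± 0.287 FPKM, with a log2 change of -0.56 (SE 0.0827; limma adjusted p = 0.000545). SLC12A7 (KCC4) went from 42.97 ± 2.56 to 38.1 ± 1.36 FPKM; its call (adjusted p = 0.0298) was lost after median scaling, without the eBayes trend and without control replicate 1 (0.057), control replicate 2 (0.0559), knockdown replicate 2 (0.0951), knockdown replicate 3 (0.0917), limma adjusted p in brackets. STK39 and OXSR1 encode the kinases SPAK and OSR1 that switch these cotransporters. STK39 fell from 22.2 ± 2.26 to 12.1 ± 0.111 FPKM, with a log2 change of -0.82 (SE 0.0753; limma adjusted p = 3.98e-05), and OXSR1 stood at 27.8 ± 0.473 and 28.2 ± 0.132 FPKM and was not called. WNK4, an upstream kinase, fell from 1.91 ± 0.146 to 0.658 ± 0.0934 FPKM, while WNK1 stood at 29.97 ± 1.66 and 31.99 ± 0.501 FPKM and was not called (adjusted p = 0.167).

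The 5 members of the SLC4A family were all called, 3 lower and 2 higher, where 63.5% of all tested genes were called. SLC4A3 (AE3), a chloride-bicarbonate exchanger, stood at 5.05, 5.78 and 5.73 FPKM (control replicates 1 to 3) and 2.29, 2.09 and 2.18 FPKM (knockdown replicates 1 to 3). The knockdown libraries were all below the control libraries, with a log2 change of -1.03 (SE 0.0852; limma adjusted p = 2.28e-05). SLC4A5 (NBCe2), a sodium-bicarbonate cotransporter, went from 2.67 ± 0.267 to 1.200 ± 0.169 FPKM, with a log2 change of -0.74 (SE 0.11; limma adjusted p = 0.000444). SLC4A11, a proton and ammonia carrier, went from 34.7 ± 0.812 to 27.1 ± 1.83 FPKM, with a log2 change of -0.35 (SE 0.0596; limma adjusted p = 0.00118). SLC4A2 (AE2), the most abundant exchanger, rose from 47.2 ± 1.48 to 57.8 ± 2.83 FPKM with a log2 change of 0.29 (SE 0.0517; limma adjusted p = 0.00157). SLC4A7 (NBCn1), an acid extruder, rose from 10.8 ± 1.03 to 13.4 ± 0.685 FPKM, and its call was lost without knockdown replicate 3 (0.052), limma adjusted p in brackets.

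Among the sodium-proton exchangers SLC9A8 (NHE8), an exchanger of the Golgi and the apical membrane, fell from 8.68 ± 0.399 to 5.06 ± 0.292 FPKM, with a log2 change of -0.67 (SE 0.0734; limma adjusted p = 9.5e-05). SLC9A7, an exchanger of the Golgi, stood at 5.48 ± 0.6498 and 6.44 ± 0.407 FPKM and was not called as deposited (adjusted p = 0.0906), but was called after median scaling (0.032), after quantile normalization (0.00983) and without control replicate 3 (0.0454), limma adjusted p in brackets. CHP, a calcium-binding partner of sodium-proton exchangers, fell from 61.3 ± 3.35 to 35.01 ± 1.396 FPKM, with a log2 change of -0.79 (SE 0.0561; limma adjusted p = 1.08e-05). For calcium, SLC24A6, the sodium-calcium exchanger of mitochondria, fell from 14.5 ± 0.762 to 9.63 ± 0.497 FPKM with a log2 change of -0.55 (SE 0.0672; limma adjusted p = 0.000188), and SLC24A1 fell from 2.39 ± 0.331 to 1.05 ± 0.156 FPKM, with a log2 change of -0.73 (SE 0.12; limma adjusted p = 0.000765).

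In the phosphate and sulfate group 2 of 5 members fell (40%, against 37.9% of all tested genes). SLC26A2, the sulfate importer mutated in diastrophic dysplasia, stood at 7.21, 8.31 and 6.96 FPKM (control replicates 1 to 3) and 3.95, 2.68 and 3.595 FPKM (knockdown replicates 1 to 3). The groups were apart, with a log2 change of -0.95 (SE 0.12; limma adjusted p = 0.000248). SLC20A1 (PiT1), a sodium-phosphate importer, fell from 41.01 ± 1.57 to 32.4 ± 2.28 FPKM, with a log2 change of -0.33 (SE 0.0619; limma adjusted p = 0.00176), whereas its relative SLC20A2 (PiT2) stood at 23.5 ± 2.44 and 21.3 ± 0.4999 FPKM and was not called (adjusted p = 0.159). XPR1, a phosphate exporter named outside the SLC series and so no member, rose from 3.68 ± 0.234 to 5.09 ± 0.123 FPKM with a log2 change of 0.38 (SE 0.0777; limma adjusted p = 0.00289).

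Carriers of vitamins, nucleosides and purines were lower in 7 and higher in 3 of 15. Without SLC28A1 and SLC46A2, which had passed the level filter through the control group only, 6 of 13 were lower (46.2%, against 36.6% of all genes filtered the same way). SLC43A3 (Entrez 29015; chromosome 11, 57174427 to 57195053, hg19), a purine nucleobase carrier, was measured at 81.1, 80.3 and 81.1 FPKM (control replicates 1 to 3) and 113, 109 and 104 FPKM (knockdown replicates 1 to 3). Its control libraries were close to each other and all knockdown values were higher, with a log2 change of 0.42 (SE 0.0445; limma adjusted p = 8.2e-05). SLC19A1, the reduced folate carrier, stood at 8.96, 7.02 and 7.14 FPKM (control replicates 1 to 3) and 13.1, 13.7 and 13.4 FPKM (knockdown replicates 1 to 3), and the log2 change was 0.73 (SE 0.0915; limma adjusted p = 0.000206). SLC5A6 (SMVT), the sodium-coupled importer of biotin and pantothenate, rose from 37.5 ± 0.374 to 48.4 ± 1.12 FPKM, with a log2 change of 0.36 (SE 0.0431; limma adjusted p = 0.000162). The other folate carrier, SLC46A1 (PCFT), stood at 2.29 ± 0.212 and 1.97 ± 0.2398 FPKM and was not called (adjusted p = 0.237).

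Several falls in this group were large and from low levels. SLC46A3 (Entrez 283537; chromosome 13, 29274218 to 29293150, hg19), a lysosomal carrier related to PCFT, was measured at 6.798, 8.19 and 7.85 FPKM (control replicates 1 to 3) and 2.28, 2.14 and 1.71 FPKM (knockdown replicates 1 to 3). Its log2 change was -1.50 (SE 0.11; limma adjusted p = 1.04e-05), 3.73-fold lower by mean FPKM. SLC28A3 (CNT3), the concentrative carrier of purine and pyrimidine nucleosides, stood at 4.04, 2.36 and 3.48 FPKM (control replicates 1 to 3) and 0.709, 0.302 and 0.555 FPKM (knockdown replicates 1 to 3). It was 6.304-fold lower by mean FPKM, with a log2 change of -1.48 (SE 0.17; limma adjusted p = 0.000132). SLC28A1 (CNT1), its pyrimidine-preferring relative, was listed at 1.05 ± 0.196 and 0.135 ± 0.0389 FPKM and was also called lower. It had passed the level filter through the control group only. The equilibrative carriers SLC29A1 (ENT1) and SLC29A2 (ENT2), which pass nucleosides either way, were far more abundant. SLC29A1 went from 44.4 ± 2.08 to 39.4 ± 0.877 FPKM (adjusted p = 0.0182), a call lost after median scaling and without control replicate 3 (0.0583), knockdown replicate 2 (0.0529), knockdown replicate 3 (0.0658), limma adjusted p in brackets. SLC29A2 stood at 32.7 ± 3.02 and 31.3 ± 2.28 FPKM and was not called. SLC29A4 (PMAT), which carries monoamines, fell from 3.04 ± 0.168 to 0.842 ± 0.0865 FPKM, with a log2 change of -1.14 (SE 0.0943; limma adjusted p = 2.35e-05). SLC23A2 (SVCT2), the ascorbate importer, fell from 14.3 ± 0.6600 to 10.1 ± 0.164 FPKM with a log2 change of -0.47 (SE 0.0602; limma adjusted p = 0.000246).

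In the group of choline, neurotransmitter and osmolyte carriers 2 of 7 members were higher (28.6%) and 1 lower (14.3%). Of all tested genes 25.6% were higher and 37.9% lower. SLC44A4, a choline and thiamine pyrophosphate carrier of mucosal epithelia, stood at 17.4, 17.1 and 18.2 FPKM (control replicates 1 to 3) and 6.91, 7.94 and 8.46 FPKM (knockdown replicates 1 to 3). The groups were far apart, with a log2 change of -1.09 (SE 0.0783; limma adjusted p = 1.16e-05); the gene was summed over several haplotype loci. The other choline carriers were not called as deposited: SLC44A1 stood at 40.5 ± 2.36 and 42.1 ± 2.76 FPKM, SLC44A2 at 126 ± 14.2 and 115 ± 4.32 FPKM and SLC44A3 at 7.602 ± 0.455 and 8.47 ± 1.89 FPKM. SLC44A2 was called after quantile normalization (adjusted p = 0.0155) and SLC44A3 without knockdown replicate 3 (0.0264). SLC6A6 (TauT), the taurine importer, rose by a small amount, from 28.2 ± 0.664 to 31.98 ± 0.365 FPKM, with a log2 change of 0.17 (SE 0.0459; limma adjusted p = 0.0106). SLC6A8, the creatine importer, went from 8.59 ± 0.593 to 10.4 ± 0.499 FPKM (adjusted p = 0.0154), and its call was lost without knockdown replicate 1 (0.0625).

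Among carriers of organic ions, bile acids and lipids 3 of 16 were higher (18.75%), 4 lower (25%) and 9 not called. Of all tested genes 25.6% were higher and 37.9% lower. Quantile normalization gave 7 higher and 3 lower, and moved the group's median log2 change from 0.02 to 0.30. Over all 13340 tested genes it gave 4304 higher and 3909 lower and moved the median from -0.09 to 0.03. The fatty acid transport proteins of the SLC27A family import fatty acids and activate them with coenzyme A, and SLC27A4 and SLC27A1 moved in opposite directions. SLC27A4 (FATP4; Entrez 10999; chromosome 9, 131102839 to 131123749, hg19) was measured at 7.45, 6.600 and 5.498 FPKM (control replicates 1 to 3) and 13.8, 13.1 and 12.8 FPKM (knockdown replicates 1 to 3). This was the largest rise of any member, a log2 change of 0.93 (SE 0.0986; limma adjusted p = 8.25e-05). SLC27A1 (FATP1) stood at 9.24, 8.23 and 8.74 FPKM (control replicates 1 to 3) and 3.303, 3.03 and 3.41 FPKM (knockdown replicates 1 to 3). Every knockdown library was lower than every control library, with a log2 change of -1.20 (SE 0.0785; limma adjusted p = 7.58e-06). SLC27A3 stood at 2.94 ± 0.319 and 3.15 ± 0.495 FPKM and SLC27A5 at 6.38 ± 0.7900 and 5.71 ± 0.322 FPKM, and both were not called as deposited; SLC27A3 was called after quantile normalization (adjusted p = 0.0423).

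Falls stood among the organic ion carriers. SLC22A15, a carrier of zwitterions such as carnosine, stood at 8.07, 9.63 and 9.44 FPKM (control replicates 1 to 3) and 3.35, 2.89 and 3.56 FPKM (knockdown replicates 1 to 3), with a log2 change of -1.23 (SE 0.0965; limma adjusted p = 1.74e-05). SLC22A18, an imprinted gene of chromosome 11, stood at 25.1, 26.8 and 26.9 FPKM (control replicates 1 to 3) and 12.5, 9.595 and 9.88 FPKM (knockdown replicates 1 to 3), and the log2 change was -1.23 (SE 0.0956; limma adjusted p = 1.69e-05). Its antisense partner SLC22A18AS stood at 0.801 ± 0.369 and 0.603 ± 0.149 FPKM and was not called; the strand setting is not given in the sources used here, so reads of the pair cannot be told apart. SLC22A4 (OCTN1), the ergothioneine carrier, went from 2.16 ± 0.374 to 1.42 ± 0.255 FPKM (adjusted p = 0.0283), a call lost after median scaling, after quantile normalization and without control replicate 1 (0.0798), control replicate 2 (0.0631), knockdown replicate 1 (0.0931), knockdown replicate 3 (0.081). SLC22A5 (OCTN2), the carnitine importer, stood at 7.07 ± 0.464 and 6.22 ± 0.322 FPKM and was not called (adjusted p = 0.0979). SLC10A3, a relative of the bile acid carriers with no known substrate, rose from 26.3 ± 0.6404 to 46.2 ± 4.35 FPKM, with a log2 change of 0.78 (SE 0.071; limma adjusted p = 3.66e-05).

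Of the 8 symbols that are not carriers 2 were higher, 2 lower and 4 not called. SLC9A3R1 (NHERF1), a scaffold that holds transporters at the apical membrane, rose from 23.6 ± 0.797 to 33.4 ± 2.24 FPKM, with a log2 change of 0.48 (SE 0.0618; limma adjusted p = 0.000235). The related scaffold SLC9A3R2 went from 16.6 ± 1.83 to 14.1 ± 0.347 FPKM, a call lost in 10 of 16 settings, among them those without control replicate 1 (0.0859), control replicate 2 (0.0804), knockdown replicate 1 (0.079), knockdown replicate 2 (0.114), knockdown replicate 3 (0.0871). SLC4A1AP (kanadaptin) went from 12.6 ± 0.378 to 10.9 ± 0.7598 FPKM, a call lost without control replicate 1 (0.0745), control replicate 2 (0.067), control replicate 3 (0.0584), knockdown replicate 1 (0.127), knockdown replicate 3 (0.097), and SLC2A4RG, a transcription factor, from 43.7 ± 2.05 to 48.4 ± 0.837 FPKM, lost without control replicate 3 (0.0915), knockdown replicate 1 (0.0693), knockdown replicate 2 (0.0719), knockdown replicate 3 (0.1), limma adjusted p in brackets. SLC7A5P1 and SLC7A5P2, pseudogenes that may share reads with SLC7A5, were not called as deposited, at 3.94 ± 0.511 and 4.65 ± 0.173 FPKM for SLC7A5P1 and 3.03 ± 0.877 and 2.92 ± 0.522 FPKM for SLC7A5P2; SLC7A5P1 was called in 4 settings, one of them without control replicate 1. SLC7A6OS, which overlaps SLC7A6 on the opposite strand, stood at 2.84 ± 0.2698 and 3.03 ± 0.674 FPKM.

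The gene ontology terms in the authors' tables place members in compartments, and a member can have several. For comparison, 37.9% of all tested genes were lower and 25.6% higher. Of 105 members with a plasma membrane term 48 were lower (45.7%) and 20 higher (19.05%), with a median log2 change of -0.17. The lower ones include SLC15A1, SLC28A1, SLC2A3 and SLC38A3, which had passed the level filter through the control group only. Of 21 with a Golgi term 8 were lower (38.1%) and 2 higher. The 16 with a term for the endoplasmic reticulum had 4 lower and 6 higher, among them SLC35B1, SLC27A4 and SLC39A1 on the rising side. Of 9 with a lysosomal term 4 were lower, SLC11A2, SLC15A3, SLC17A5 and SLC26A11, and 2 higher, SLC30A2 and SLC36A1. The SLC15A3 call was lost after quantile normalization (adjusted p = 0.0967) and the SLC30A2 call without knockdown replicate 3 (0.0506), limma adjusted p in brackets. SLC15A3 too had passed the level filter through the control group only, and the compartments were not recounted without such members. No test compared the compartments, and this count was added after the values had been seen.

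Of 65 members under 5 FPKM 47.7% were called, against 53.9% of all tested genes at that level, and of 109 at or above it 62.4%, against 67.8%. Among the low members at 0.5 FPKM or more in both groups 5 were higher and 18 lower of 56 (32.1% lower, against 38.8% of all genes chosen the same way). Just inside the 0.5 FPKM threshold were the peptide carrier SLC15A3 at 0.5095 FPKM, SLC46A2 at 0.543 FPKM and the zinc exporter SLC30A4 at 0.547 FPKM. Just outside it were SLC9A3 at 0.4801 FPKM, SLC23A3 at 0.474 FPKM and SLC10A5 at 0.444 FPKM.

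Other genes of membrane transport were counted beside the members. Of 28 partners and ion pumps 25 were tested, and 9 were higher (36%) and 11 lower (44%), against 25.6% and 37.9% of all tested genes. Their median log2 change was 0.02, against -0.09 for all tested genes. The sodium-potassium pump makes the gradient that drives the sodium-coupled carriers. Its beta subunit ATP1B3 rose from 46.3 ± 3.44 to 81.5 ± 3.03 FPKM with a log2 change of 0.80 (SE 0.0607; limma adjusted p = 1.47e-05), and the beta subunit ATP1B1 fell from 107 ± 6.899 to 89.8 ± 2.49 FPKM. The calcium pump of the endoplasmic reticulum, ATP2A2, rose from 58.00 ± 2.26 to 93.2 ± 1.62 FPKM, with a log2 change of 0.68 (SE 0.0448; limma adjusted p = 8.02e-06). At the plasma membrane the calcium pump ATP2B1 rose from 8.43 ± 1.08 to 12.3 ± 0.214 FPKM and ATP2B4 fell from 41.5 ± 1.51 to 29.9 ± 1.04 FPKM. TXNIP, which drives the removal of GLUT1 from the surface, went from 82.00 ± 18.2 to 60.5 ± 2.07 FPKM (adjusted p = 0.0248), a call lost after median scaling, without a filter on low values and without knockdown replicate 1 (0.058), knockdown replicate 2 (0.0742), knockdown replicate 3 (0.0554), limma adjusted p in brackets. Of 12 organic anion carriers of the SLCO family 7 were tested. Of these 3 were lower (42.9%) and 1 higher (14.3%), against 37.9% and 25.6% of all tested genes. SLCO2B1, an importer of steroid sulfates and drugs, was listed at 7.07, 5.32 and 6.18 FPKM (control replicates 1 to 3) and 0.335, 0.407 and 0.178 FPKM (knockdown replicates 1 to 3), 20.2-fold lower by mean FPKM (limma adjusted p = 2.26e-06).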

How the data were processed

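RNA of 6 A549 libraries, 3 control and 3 FOXD3 knockdown, was sequenced by the authors. The authors deposited FPKM values per gene for each library, per the file headers. The authors' own comparison was also deposited: for each group a single FPKM, then the log2 ratio, p-value and false discovery rate (per the file headers). The submitters' processing notes list TopHat2 2.0.12, Bowtie, Cufflinks 2.0.2, Cuffdiff and hg19 without a role; annotation and strand setting were not given in the sources used here. Start positions were printed 1-based.

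Rows of 1 symbol were summed. The 13340 genes averaging 0.5 FPKM or more were fitted as log2(FPKM + 1) with limma 3.58.1 in R 4.3.3 (lmFit, then eBayes with a trend), two-sided, with Benjamini-Hochberg adjusted p-values and a threshold of 0.05. The fit was tested on simulated data. Depth was estimated from intronless genes of GENCODE 29. Each group's precision rests on 3 libraries. Members, substrate groups and lists were chosen with earlier results of these data known. The members named by rule are, in each substrate group, the 3 with the highest level and up to 6 with the largest change past the threshold whose higher group averaged 2 FPKM or more, beside the members next to the 0.5 FPKM threshold, called partners and pumps and abundant markers; others were named after their values were seen. Alternatives were other pseudocounts (0.1 and 0.5), no filter or a filter at 5 FPKM, median scaling, quantile normalization, other eBayes settings, array weights, the highest row of a symbol, and leaving out each library. FOXD3 was compared with an exact permutation test. Promoters were matched by symbol to the RefSeq table on GRCh38.p14. Some genes are not reported here by name.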

Additional observations from a re-analysis of the deposited data

How the results depend on the processing

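Of the 99 members called, 71 (22 higher and 49 lower) kept call and direction under all 16 alternative settings, 28 lost the call in at least 1 and 0 changed direction; 31 members not called gained a call in at least 1. A filter at 5 FPKM left 109 members, of which 40 were lower, and 3295 of all genes were lower; fewer genes are tested there. Quantile normalization gave 52 members and 4304 of all genes higher, and the cause was not tested. The summed FPKM of the metal carriers was 0.979 times the control level as deposited and 1.04 times after median scaling, so its direction depends on the scaling. Leaving out 1 library at a time gave 25 to 34 members higher and 58 to 63 lower, and the FOXD3 difference kept its direction, with an exact permutation p of 0.2 without control replicate 2. No paired analysis was possible because the labels give no replicate numbers; the numbers used here follow accession order and only name the libraries. Depth limits the members under 1 FPKM, which rest on few fragments. Counting only members at 0.5 FPKM or more in both groups was a choice made after seeing the data. It gave 33 higher and 58 lower (20% and 35.2%), against 26.4% and 36.6% of all genes filtered the same way.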
